A study of Mus musculus with 32 samples.

Results

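The 6 Gata genes of the mouse genome, Gata1 to Gata6, were followed in zygotes and 2-cell embryos whose histone acetylation or deacetylation had been inhibited. They are 6 of the 55385 genes listed for each RNA-seq library and were chosen by symbol as a whole family, with none left out for its level. The family was selected from measured RNA differences of these libraries, so the RNA levels, fold changes and calls of its members are given as a description, without p-values.

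GATA factors are transcription factors with a pair of zinc fingers that bind DNA around the letters GATA. Gata1, Gata2 and Gata3 are best known for blood, trophoblast and T-cell development, and Gata4, Gata5 and Gata6 for heart and endoderm. In the mouse preimplantation embryo, Gata3 and Gata2 are associated with the trophectoderm, the outer layer that founds the placenta, and Gata6 and Gata4 with the primitive endoderm. The 2-cell stage lies well before either lineage, at the time when the embryo's own genome is activated.

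Total RNA-seq covered 8 groups of 2 libraries made from wild-type B6D2F1/J embryos, obtained by in vitro fertilization with gametes of 6- to 8-week-old mice. Embryos collected as zygotes, at early 2-cell or at late 2-cell had been cultured with DMSO or with 10 µM A-485, which inhibits the acetyltransferases CBP and p300, given from 4 to 20 h post in vitro fertilization (hpi), so that A-485-treated late 2-cell embryos had been out of the inhibitor since 20 hpi. The paper describes this treatment as running from zygote to early 2-cell, so embryos collected before the 2-cell stage had received only part of it. A separate experiment compared late 2-cell embryos cultured with DMSO or with 50 nM Trichostatin A (TSA), an inhibitor of histone deacetylases, from 8 to 28 hpi. ATAC-seq, which marks open chromatin, gave 1 list of peaks over both replicates for each of 4 groups, at late 1-cell and at early 2-cell, either with DMSO or with A-485. The labels do not say how the embryos of replicate libraries relate, so the spread between replicates may be technical, and in libraries of pooled embryos fewer expressing cells and less RNA per cell cannot be told apart. The libraries held between 13206163 and 32585987 expected counts, and 6 oocyte and zygote markers were detected in every group, with a summed level of 2100 to 2320 FPKM (fragments per kilobase, scaled to the mapped fragments of a library) in DMSO-treated zygotes.

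Sequences at which the members differed are shown here, on the strand of each gene and in GRCm38 coordinates, with each CG dinucleotide in capitals. Promoters were taken from RefSeq, which gave entries for Gata1, Gata2, Gata3 and Gata5, and only bases before the first exon are printed. The first sequence is the part of an ATAC-seq peak that lay just before the outermost start of Gata1, at chrX:7978072-7978338, and was called only in DMSO-treated early 2-cell embryos. The second lies before the start that RefSeq gives for Gata1, at chrX:7967911-7968160, where no list had a peak. The Gata2 and Gata5 promoters, at chr6:88193641-88193890 and chr2:180334700-180334929, belong to the members that gained most and appeared from no signal after TSA treatment. The last pair are the Gata3 peaks that were present at late 1-cell and in A-485-treated early 2-cell embryos but absent from the DMSO-treated early 2-cell list, at chr2:9879542-9879841 and chr2:9889541-9889810.
Gata1 peak at the outermost start: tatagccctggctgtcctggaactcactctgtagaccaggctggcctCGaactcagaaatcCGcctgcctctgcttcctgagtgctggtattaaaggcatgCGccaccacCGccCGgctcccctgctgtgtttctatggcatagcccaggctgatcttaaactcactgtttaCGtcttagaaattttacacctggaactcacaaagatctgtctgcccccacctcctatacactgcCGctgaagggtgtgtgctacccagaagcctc
Gata1 promoter: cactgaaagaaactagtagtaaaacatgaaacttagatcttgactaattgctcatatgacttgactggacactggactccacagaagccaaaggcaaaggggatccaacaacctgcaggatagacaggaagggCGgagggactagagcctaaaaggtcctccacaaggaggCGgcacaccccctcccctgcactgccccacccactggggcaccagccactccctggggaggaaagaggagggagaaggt
Gata2 promoter: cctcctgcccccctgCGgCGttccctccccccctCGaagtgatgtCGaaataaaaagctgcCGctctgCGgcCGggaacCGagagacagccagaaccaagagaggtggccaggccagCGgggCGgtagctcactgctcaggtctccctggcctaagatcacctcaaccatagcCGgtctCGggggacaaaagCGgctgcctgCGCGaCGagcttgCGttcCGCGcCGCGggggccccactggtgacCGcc
Gata5 promoter: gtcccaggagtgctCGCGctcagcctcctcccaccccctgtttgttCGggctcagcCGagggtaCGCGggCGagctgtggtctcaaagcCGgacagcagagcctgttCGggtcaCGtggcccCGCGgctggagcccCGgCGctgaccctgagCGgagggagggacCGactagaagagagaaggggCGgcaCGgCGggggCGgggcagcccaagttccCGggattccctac
Gata3 intronic peak: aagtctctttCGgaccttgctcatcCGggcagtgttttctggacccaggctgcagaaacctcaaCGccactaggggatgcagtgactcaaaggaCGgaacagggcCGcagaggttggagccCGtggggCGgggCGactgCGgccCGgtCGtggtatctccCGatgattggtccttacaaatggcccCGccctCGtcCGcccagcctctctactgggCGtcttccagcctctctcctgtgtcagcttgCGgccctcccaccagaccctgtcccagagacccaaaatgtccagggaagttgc
Gata3 peak near an outer start: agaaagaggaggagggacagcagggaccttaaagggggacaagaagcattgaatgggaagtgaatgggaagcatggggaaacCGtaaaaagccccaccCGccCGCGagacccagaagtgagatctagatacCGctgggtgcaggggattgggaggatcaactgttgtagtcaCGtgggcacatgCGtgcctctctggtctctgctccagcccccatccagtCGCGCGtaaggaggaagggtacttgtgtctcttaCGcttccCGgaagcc

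The density of CG dinucleotides separated these promoters. Over RefSeq's 300 bases around a start, from 250 before to 50 after it, Gata2 had 32 and 29 CG at its pair of entries, Gata5 had 26 and Gata3 had 22, against a median of 7 over 32851 promoters. Gata1 had 4. As many CG as in the first Gata2 entry were found in 9.52% of all promoters, and as many as in Gata1 in 68.6%. The letters GATA preceded by A or T and followed by A or G, 4 forms of the site bound by GATA factors, were searched on both strands. Of the 5 member promoters, only that of Gata3 held one, whereas 29.8% of all promoters did, and none of the 6 printed sequences held one. A match or its absence says nothing about binding.

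By counts of calls, the members differed little at zygote and most at late 2-cell. A member was called up or down where the level changed at least 2-fold, averaged 1 FPKM or more in either group and had an adjusted p below 0.05, with cutoffs taken from the study's methods and that on FPKM applied here to either group. Between A-485-treated and DMSO-treated zygotes, 0 of the 4 members tested were called by edgeR's quasi-likelihood test or by DESeq2, and 0 had an unadjusted p under 0.05 in edgeR, where 0.00548% of all genes tested were called up and 0.0657% down. At early 2-cell, 1 of 5 was called down after A-485 treatment and 0 up, where 7.9% of genes were called down and 0.402% up. At late 2-cell, 3 of 5 were called up and 2 down after A-485 treatment, where the shares of all genes were 10.5% and 16.8%. After TSA treatment, 3 of 6 were called up and 2 down, where the shares were 13.8% and 13.9%. From zygote to early 2-cell in DMSO, 2 of 5 were called up and 1 down, with 11.2% of genes up and 14.9% down. From early to late 2-cell in DMSO, 2 of 5 were called up and 1 down, with 15.9% up and 8.92% down. Since these contrasts chose the family, nothing is read from the comparison with the background. The early 2-cell DMSO libraries served in 3 of these comparisons, and the zygote DMSO libraries and the late 2-cell DMSO libraries of the A-485 experiment in 2 each, so those comparisons are not independent of each other.

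**Figure D1:**
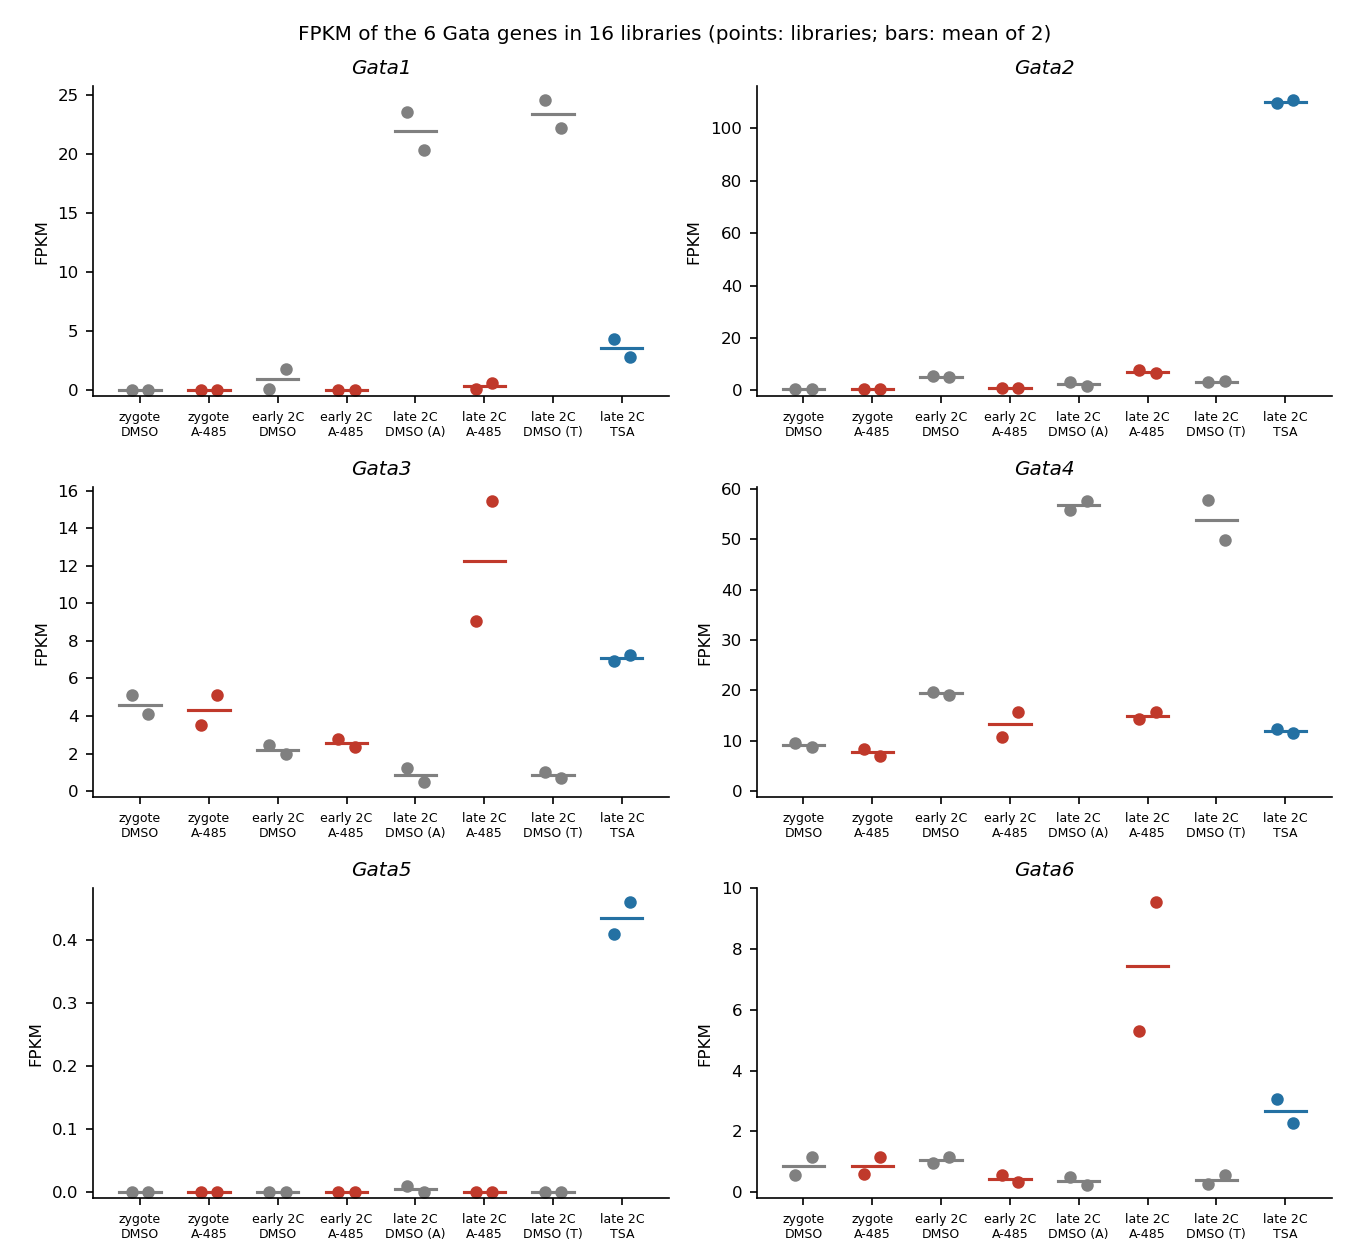
FPKM of each Gata gene in the 16 RNA-seq libraries, with a point for each library and a bar for the mean of 2; grey is DMSO, red A-485 and blue TSA, and (A) and (T) mark the DMSO controls of the A-485 and TSA experiments. Gata1 and Gata4 were highest in the 4 late 2-cell DMSO libraries, and Gata2, Gata3, Gata5 and Gata6 were highest in treated late 2-cell embryos.

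Gata1 (ENSMUSG00000031162.14), the master regulator of red blood cell and megakaryocyte development, lies at chrX:7959260-7978071 on the minus strand. It was listed at 0 in all 4 zygote libraries. In DMSO-treated early 2-cell embryos it had 0.14 and 1.76 FPKM, from 5 and 66 counts, so that the libraries differed more than 10-fold from each other and nearly all reads came from replicate 2. At late 2-cell it reached 23.5 and 20.3 FPKM in the DMSO libraries of the A-485 experiment and 24.5 and 22.2 FPKM in those of the TSA experiment. The step from early to late 2-cell in DMSO came to 4.21 ± 0.62 (log2 fold change ± SE) and was called, at 3.33 without early 2-cell DMSO replicate 1 and 6.94 without replicate 2. Gata1 was thus the only member that went from no reads at zygote to more than 20 FPKM within the DMSO-treated series.

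Gata1 was lower with both inhibitors. In A-485-treated early 2-cell embryos it was at 0 in both libraries, against 5 and 66 counts in DMSO, and it was not called because its mean stayed under 1 FPKM. Against a floor of 3 counts per library it was at least 11.8-fold lower, a bound that rests on DMSO replicate 2. At late 2-cell the A-485-treated libraries had 0.09 and 0.63 FPKM, from 2 and 16 counts, a log2 difference of -5.74 ± 0.51 from DMSO, which was -4.97 without A-485 replicate 1 and -7.74 without replicate 2. TSA-treated late 2-cell embryos had 4.31 and 2.80 FPKM, a log2 difference of -2.76 ± 0.22. No treated library overlapped its controls, and both late 2-cell differences were called down. RSEM's mean effective length of Gata1 was 1268 to 1468 bases in the 4 late 2-cell DMSO libraries and 1677 and 1758 bases in the TSA-treated ones, so the mix of estimated transcripts differed as well as the level. In the late 2-cell A-485-treated libraries it was 1683 and 1691 bases, from only 2 and 16 counts.

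Gata2 (ENSMUSG00000015053.14), which maintains blood stem cells and is expressed in trophoblast, lies at chr6:88193891-88207032 on the plus strand. In zygotes it had 0.43 and 0.63 FPKM with DMSO and 0.47 and 0.43 FPKM with A-485. DMSO-treated early 2-cell embryos had 5.26 and 4.88 FPKM, a log2 difference of 3.44 ± 0.28 from zygote, which was called. The level was lower again at late 2-cell, at 3.28 and 1.67 FPKM in one set of controls and 3.05 and 3.35 FPKM in the other. The early to late 2-cell difference, -1.05 ± 0.33, was called but lost its call without early 2-cell DMSO replicate 1 or without late 2-cell DMSO replicate 2, where it was -0.98 and -0.62, and was -1.66 without late 2-cell DMSO replicate 1.

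The response of Gata2 to A-485 differed in sign between the stages. At early 2-cell it was 0.71 and 0.81 FPKM with A-485, a log2 difference of -2.91 ± 0.26 from DMSO, and it was the one member called down there. At late 2-cell it was 7.82 and 6.46 FPKM with A-485 against 3.28 and 1.67 FPKM, a log2 difference of 1.08 ± 0.36, which was called up but fell short of a call without late 2-cell DMSO replicate 2, at 0.68, and was 1.72 without replicate 1. When libraries were scaled to mitochondrially encoded protein genes, a scaling that shifted the median of all expressed genes by -0.98, the late 2-cell difference was 0.12 and was not called. The early and late 2-cell groups did not overlap between treatments at either stage.

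TSA treatment gave the highest level of any Gata gene in any group. Gata2 had 110 and 111 FPKM in the TSA-treated libraries, from 5685 and 6056 counts, against 3.05 and 3.35 FPKM in the DMSO controls. The log2 difference was 4.73 ± 0.10, a 26.6-fold higher level, and 551 of the 3237 genes called up had a difference at least as large. It kept its call under every alternative run.

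Gata3 (ENSMUSG00000015619.10), a driver of T-cell and trophectoderm development, lies at chr2:9857078-9890034 on the minus strand. It was present in zygotes and lower at each later DMSO stage. Zygotes had 5.12 and 4.10 FPKM with DMSO and 3.54 and 5.10 FPKM with A-485, early 2-cell embryos 2.45 and 1.98 FPKM with DMSO, and late 2-cell embryos 1.22 and 0.48 FPKM in one set of controls and 1.00 and 0.69 FPKM in the other. The step from zygote to early 2-cell, -1.06 ± 0.23, was called down by edgeR but not by DESeq2 or without zygote DMSO replicate 1 or early 2-cell DMSO replicate 2. The step to late 2-cell, -1.26 ± 0.47, was not called.

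In treated late 2-cell embryos Gata3 was high. A-485-treated libraries had 9.06 and 15.4 FPKM, a log2 difference of 3.47 ± 0.43 from DMSO, and TSA-treated libraries had 6.91 and 7.26 FPKM, a log2 difference of 2.64 ± 0.26. Both were called up, with 4.39 after A-485 when DMSO replicate 1 was left out, and each treated library lay above every zygote, early 2-cell and control library, where the highest value was 5.12 FPKM. At early 2-cell, with A-485 still present, Gata3 had 2.77 and 2.34 FPKM, which overlapped the DMSO libraries and gave 0.32 ± 0.27. No A-485 difference of Gata3 was therefore seen while the inhibitor was present, in zygotes or at early 2-cell, beyond the spread between libraries.

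Gata4 (ENSMUSG00000021944.15), a heart and endoderm factor, lies at chr14:63198922-63271692 on the minus strand and was the member with the highest level in DMSO. It climbed from 9.50 and 8.71 FPKM in DMSO-treated zygotes to 19.7 and 19.2 FPKM at early 2-cell and 55.9 and 57.5 FPKM at late 2-cell, with 57.8 and 49.9 FPKM in the controls of the TSA experiment. Both steps were called, at 1.15 ± 0.13 and 1.53 ± 0.13. The first step depends on the scale: relative to mitochondrially encoded protein genes, where the median of all expressed genes shifted by -1.33, it was -0.18 and not called.

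Gata4 was lower with both inhibitors at late 2-cell. A-485-treated embryos had 14.3 and 15.7 FPKM, a log2 difference of -2.10 ± 0.14, and TSA-treated embryos had 12.3 and 11.5 FPKM, a log2 difference of -2.53 ± 0.11, both called down. At early 2-cell, A-485 gave 10.8 and 15.8 FPKM, below both DMSO libraries but with a difference of -0.53 ± 0.16, under the 2-fold threshold. Zygotes had 8.41 and 7.02 FPKM with A-485, a difference of -0.28 ± 0.14 that was not called. With A-485, Gata4 thus stood at a mean of 7.72 ± 0.98 FPKM at zygote, 13.3 ± 3.5 FPKM at early 2-cell and 15.0 ± 0.96 FPKM at late 2-cell (SD, n = 2), while DMSO-treated embryos reached 56.7 ± 1.2 FPKM.

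Gata5 (ENSMUSG00000015627.5), an endoderm and heart factor, lies at chr2:180325133-180334699 on the minus strand. It was listed at 0 in 13 of the 16 libraries and had 1 count in 1 late 2-cell DMSO library. The TSA-treated libraries had 24 and 28 counts, or 0.41 and 0.46 FPKM, at least 9.91-fold above their controls against a floor of 3 counts per library. Gata5 was not called because its level stayed under 1 FPKM.

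Gata6 (ENSMUSG00000005836.10), a factor of the primitive endoderm, lies at chr18:11052064-11085635 on the plus strand. It was low in every DMSO group, with 0.57 and 1.17 FPKM at zygote, 0.97 and 1.17 FPKM at early 2-cell, and 0.49 and 0.24 FPKM at late 2-cell, with 0.26 and 0.57 FPKM in the controls of the TSA experiment. A-485-treated zygotes overlapped these at 0.60 and 1.16 FPKM. A-485-treated early 2-cell embryos had 0.56 and 0.34 FPKM, below both DMSO libraries, with a log2 difference of -1.05 ± 0.50 that was not called. At late 2-cell the order was opposite, with 5.32 and 9.55 FPKM after A-485 treatment, a log2 difference of 3.61 ± 0.48 that was called up. Without DMSO replicate 1 it was 4.30. RSEM's mean effective length of Gata6 was 2293 and 2008 bases in these A-485-treated libraries and 3033 and 3034 bases in their controls. A shorter length gives more FPKM for the same counts. This length also differed between the late 2-cell controls of the TSA experiment, at 2200.5 and 3088 bases. TSA treatment gave 3.08 and 2.27 FPKM, a log2 difference of 2.42 ± 0.48, also called up, which was 1.82 without the first and 3.44 without the other DMSO replicate. Gata6 was the member with the largest A-485 difference upward at late 2-cell, ahead of Gata3 by less than either standard error.

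**Figure D2:**
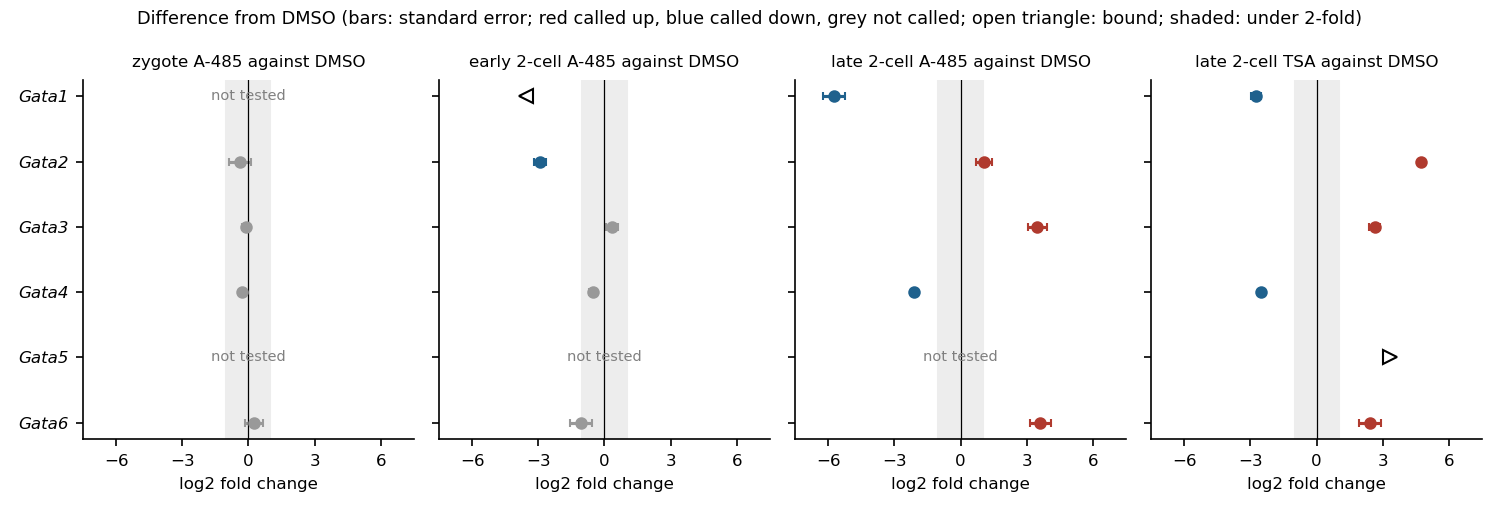
Log2 fold change of each Gata gene between treated and DMSO-treated embryos (x axis) in the 4 treatment comparisons, with the standard error as a bar; open triangles are bounds against a group at 0 and the shaded band marks less than 2-fold. At late 2-cell, Gata1 and Gata4 lay to the left and Gata2, Gata3 and Gata6 to the right after both A-485 and TSA treatment; Gata2 after A-485 was not called on the mitochondrial scale.

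The order of the members by FPKM, a level per length, differed between these groups. In late 2-cell DMSO embryos of the A-485 experiment the means ran from Gata4 at 56.7 FPKM over Gata1 at 21.9, Gata2 at 2.48 and Gata3 at 0.85 to Gata6 at 0.36 FPKM, with Gata5 last, and only the libraries of Gata3 and Gata6 overlapped. After A-485 the means ran from Gata4 at 15.0 over Gata3 at 12.2, Gata6 at 7.44 and Gata2 at 7.14 FPKM to Gata1 at 0.36 FPKM, and the libraries overlapped between Gata4 and Gata3, between Gata3 and Gata6 and between Gata6 and Gata2. After TSA the order was Gata2 at 110 FPKM, Gata4 at 11.9, Gata3 at 7.09, Gata1 at 3.56 and Gata6 at 2.68 FPKM, with an overlap between Gata1 and Gata6, and Gata5 was last at 0.43 FPKM.

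Across treatments, the members fell into the same pair of sets at late 2-cell. Gata1 and Gata4 were lower and Gata2, Gata3 and Gata6 higher after A-485 and, in a separate experiment with its own controls, after TSA, with Gata2 after A-485 not called on the mitochondrial scale. In each case the treated libraries lay wholly outside their controls. The sizes differed: Gata2 was 2.12-fold higher after A-485 and 26.6-fold higher after TSA, whereas Gata1 was 53.5-fold lower after A-485 and 6.77-fold lower after TSA. The difference between the inhibitors was not tested, as they were given over different hours and in different experiments. Over the 8 groups, on log2 values of mean FPKM plus 1, Gata1 correlated with Gata4 at r = 0.91 and Gata3 with Gata6 at r = 0.87, while Gata3 and Gata4 ran at r = -0.74. These are descriptions over 8 group means.

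Other genes shared these courses closely. Among 10053 genes with a mean of at least 5 FPKM in some group, the nearest to Gata1 were Fbxo6, a subunit of a ubiquitin ligase that recognises glycoproteins, at r = 0.999, Ptdss2, which makes phosphatidylserine, and Mfsd5. Ptdss2 had means of 101 and 110 FPKM in the late 2-cell controls, 2.75 FPKM after A-485 and 17.4 FPKM after TSA. Nearest to Gata2 were Dusp4, a phosphatase of MAP kinases (r = 0.994), Slc11a1 and BC061212. Near to Gata3 were Zfp612 (r = 0.986) and Nr2f2, an orphan nuclear receptor (r = 0.978), which had a mean of 9.37 FPKM after A-485 and 6.07 FPKM after TSA, against 1.08 FPKM in the controls of the latter. Zbtb10, Sec24a and Rb1cc1 were nearest to Gata4, from r = 0.995 to 0.992. Rb1cc1, an autophagy gene, had means at late 2-cell of 202 FPKM after A-485 against 411 FPKM in its controls. After TSA it had 200 FPKM against 432 FPKM. Nearest to Gata6 were Atoh1, a neuronal transcription factor (r = 0.97), Kis2 and AC132253.4. With 0.1 in place of 1 added to the FPKM, none of the 3 genes for Gata1 and 1 of 3 for Gata2 and for Gata6 kept its place.

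Open chromatin near the members was examined in windows of 50 kb on either side of the outermost annotated start. The submitters' processing notes name GRCm38 for these samples, and none of the peaks ran past a chromosome end of that build. The build of the peak lists themselves was not given in the sources used here, so the positions and overlaps of peaks rest on this reading. At late 1-cell, 10214 peaks were listed with DMSO, of which 5 lay in the 6 windows, and 7094 with A-485, of which 3 did. At early 2-cell, the lists had 27693 peaks with DMSO, 14 of them in the windows, and 13712 with A-485, 6 of them in the windows. At early 2-cell with DMSO 4 of the 6 members had a peak, where 68.8% of 21938 protein-coding genes had one. Of the 14 early 2-cell DMSO peaks, 2 overlapped a peak of the A-485-treated list, and 21.7% of all 27693 peaks did. As the peaks were called over both replicates, these counts carry no replicate error.

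At Gata1, 4 peaks were called in DMSO-treated early 2-cell embryos. One, at chrX:7977945-7978338 with 8.08-fold enrichment, overlapped the outermost start and an exon of Gata1, and it was absent from the A-485-treated list and from both late 1-cell lists. That is the peak whose upstream part is printed above, and 67% of the printed bases are soft-masked as repeats in the RefSeq genome. Of the 300-base windows around all early 2-cell DMSO summits, 48.4% were at least 50% masked, against 4.02% with A-485. A peak shared by all 4 lists lay at the start of Hdac6, a deacetylase gene, with its summit 30196 bases downstream in the early 2-cell DMSO list. The others, at chrX:7933028-7934092 in an intron of Hdac6 and at chrX:8016357-8016658 in an intron of Glod5, were in the early 2-cell DMSO list alone.

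Gata2 had no peak in its window in any of the 4 lists, although it was called up from zygote to early 2-cell in DMSO and down with A-485 at that stage. At Gata3, a peak in its intron, with its summit at -1092 to -1038 bases from the start that RefSeq gives for the gene, and one with its summit 360 to 369 bases inside an outer start, overlapping an exon of 9230102O04Rik, were present in late 1-cell embryos with DMSO, at 4.64- and 6.88-fold enrichment, and with A-485, at 5.70- and 6.57-fold. In A-485-treated early 2-cell embryos they had 7.04- and 8.82-fold enrichment, and in the DMSO-treated early 2-cell list neither was called. The 300 bases around their summits in A-485-treated early 2-cell embryos held no masked repeats and 17 and 13 CG, where the median window had 18 CG in that list and 5 in the DMSO list of that stage.

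**Figure D3:**
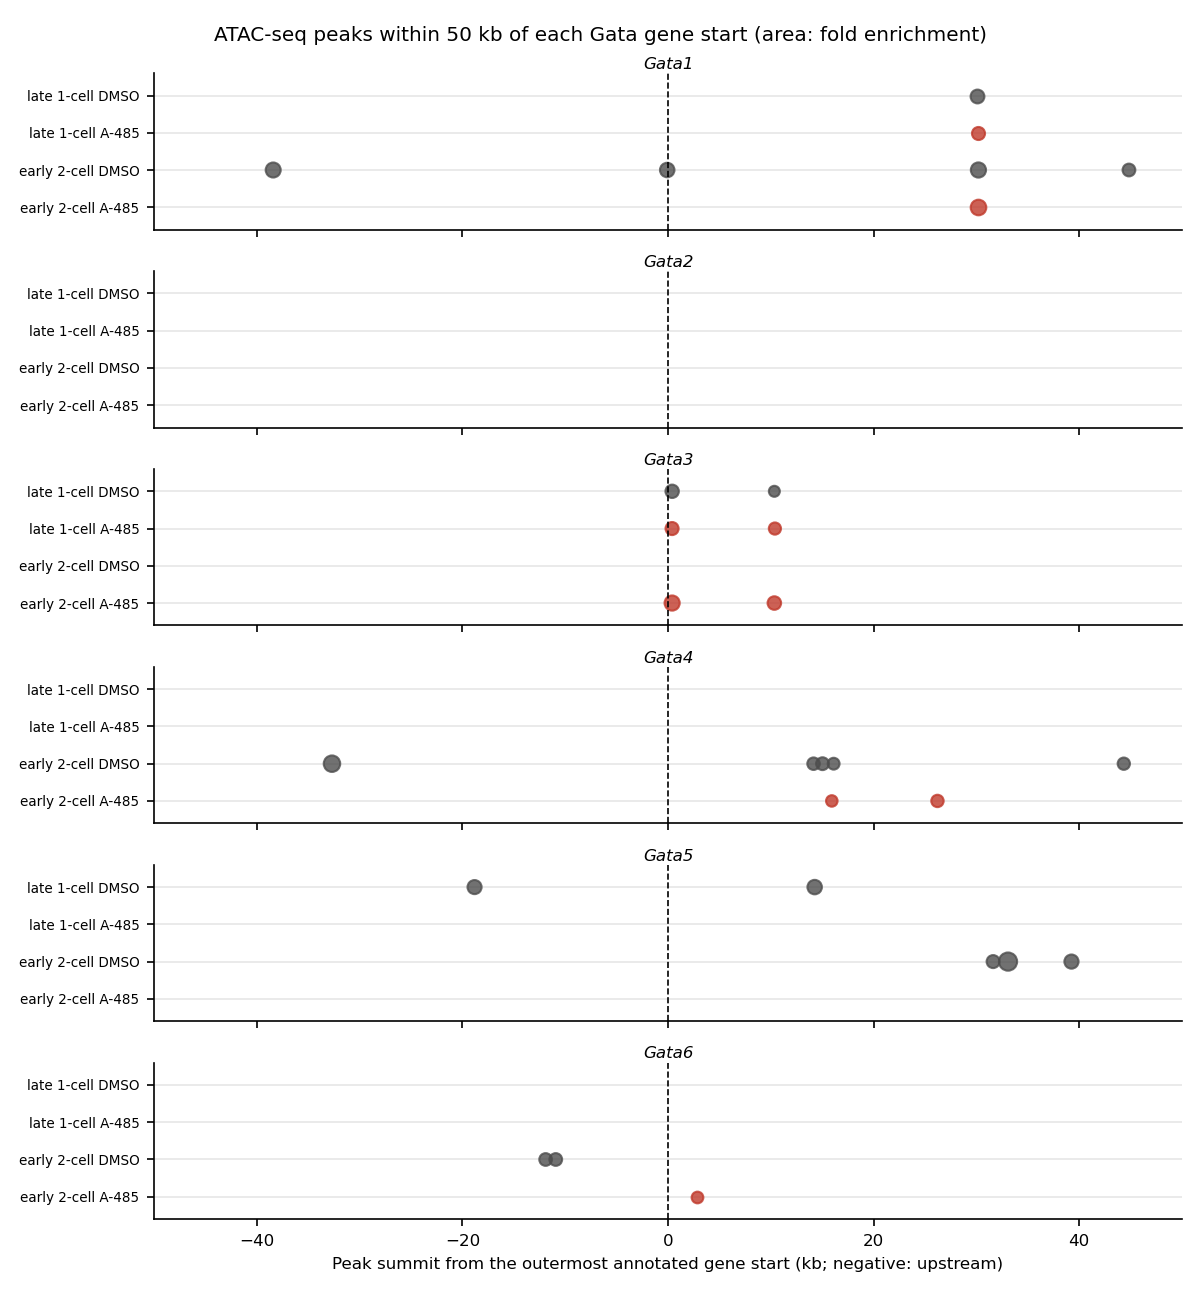
ATAC-seq peaks of the 4 lists around each Gata gene, by the distance of the summit from the outermost annotated start in kb (negative is upstream); the area of a point is its fold enrichment, grey is DMSO and red A-485. Peaks at Gata3 are missing from the early 2-cell DMSO list alone, those far from Gata4, Gata5 and Gata6 are mostly in that list alone, and Gata2 has none.

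At Gata4, neither late 1-cell list had a peak. DMSO-treated early 2-cell embryos had 5, all more than 2.5 kb from any annotated start, 4 of them in introns of Gata4 and 1 upstream at chr14:63303732-63304584 with 10.4-fold enrichment. A-485-treated embryos kept 1 of these, at chr14:63255436-63256403, and had a peak that DMSO lacked over the start of a coding transcript, at chr14:63245144-63246172, with 5.90-fold enrichment and 24 CG in the 300 bases around its summit. Gata5 had 3 intergenic peaks at early 2-cell and 2 others at late 1-cell, all with DMSO and none with A-485.

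At Gata6, DMSO-treated early 2-cell embryos had a pair of peaks with summits at -11907 and -10924 bases from the outermost start, at chr18:11039992-11040422 and chr18:11040641-11041558, in an intron of the opposite-strand gene 1010001N08Rik. The A-485-treated list had neither, and instead a peak at chr18:11054693-11055216 over an internal start and exon of Gata6, with 5.27-fold enrichment. So at Gata3, Gata4 and Gata6 the early 2-cell A-485 list held a peak within 1 kb of an annotated start that the DMSO list of that stage lacked, and at Gata1 the opposite held. In all, 37.4% of protein-coding genes had a peak within 1 kb of their outermost start in the A-485-treated list and 27.7% in the DMSO-treated list. These shares are not a like measure, because the members were counted at any annotated start. The Gata4 and Gata6 peaks had summits 26211 and 2855 bases inside the outermost start. Measured from that start, only Gata3 would have such an A-485 peak.

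Neighbouring genes were checked because transcripts that overlap a member could share its reads. RSEM gave a posterior SD of 0 for the counts of every member. The paper names a stranded kit for these libraries, but the strand setting of the counting was not given in the sources used here. Whether the counts separate a gene from its antisense partner is therefore not known. On the opposite strand within Gata3, 4930412O13Rik had 2.28 and 1.56 FPKM at late 2-cell after A-485 but no counts in DMSO, at least 7.54-fold higher (edgeR adjusted p = 0.0185), a call that was lost without A-485 replicate 1. At Gata6, the opposite-strand 1010001N08Rik had 1.03 and 2.69 FPKM and no counts in DMSO, at least 6.82-fold higher (edgeR adjusted p = 0.023), a call lost without A-485 replicate 2 or without either DMSO replicate. These opposite-strand genes had 10 to 23 counts per library after A-485, against 161 and 286 for Gata6. Gata5os, opposite Gata5, had 1 and 3 counts with TSA, where Gata5 had 24 and 28. Gm13256, within Gata3 on the opposite strand, and Gm44388, near Gata2, had no counts in any late 2-cell library. Gm38708, also near Gata2, had 0.93 and 0.29 FPKM with TSA, and Psmb6-ps, near Gata1, had 0.47 and 0.72 FPKM in the controls of the TSA experiment and 0 with TSA, and neither was called. Neil2, beside Gata4, had 1.38 and 0.97 FPKM with A-485 and 1.39 and 1.07 FPKM with DMSO at late 2-cell.

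Partners of the GATA factors are given from lists of known cofactors, counting every gene tested. These and the following lists were written with earlier results of these data known, so calls and p-values of their genes are descriptive. The counts of this and the following lists are to be read against the shares of all genes called, which at late 2-cell were 10.5% up and 16.8% down after A-485 and 13.8% up and 13.9% down after TSA, and at early 2-cell 0.402% up and 7.9% down with A-485. Of the FOG cofactors, which bind the GATA zinc finger, Zfpm2 rose at late 2-cell after A-485 (1.28 and 1.91 against 0.31 and 0.16 FPKM, log2 fold change 2.35 ± 0.60, edgeR adjusted p = 0.00883), a call lost on the mitochondrial scale, and Zfpm1 rose after TSA treatment (1.69 ± 0.34, edgeR adjusted p = 0.00212). Of 10 genes whose products work with GATA factors in blood, 9 were tested after A-485 treatment, where 3 rose and 1 fell. Runx1, a regulator of blood stem cells, rose from 0.19 and 0.17 to 3.10 and 2.40 FPKM (3.38 ± 0.51, edgeR adjusted p = 0.000233), and Tal1, a partner of Gata1 in erythroid cells, from 0.11 and 0 to 2.73 and 2.11 FPKM (5.65 ± 0.83, edgeR adjusted p = 0.00019). Lmo2, a bridging factor of the same complex, went from no counts to 1.90 and 1.09 FPKM, at least 12.9-fold higher. Nfe2, an erythroid transcription factor, fell like Gata1, from 4.47 and 8.25 to 1.89 and 2.83 FPKM, or from 159 and 239 to 21 and 15 counts (-3.08 ± 0.50, edgeR adjusted p = 0.000442). After TSA treatment, 3 of 8 tested rose and 1 fell: Runx1 reached 7.22 and 7.42 FPKM (4.86 ± 0.25, edgeR adjusted p = 8.5e-08), Lmo2 and Spi1 rose by 4.78 and 4.34 on the log2 scale, and Nfe2 again fell. The median of the blood partners was 3.38 after A-485, or 1.97 with genes against a group at 0 set to their bound, and 3.47 after TSA, beside 0.28 and 0.13 over all genes tested.

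Of 6 cardiac partners, all tested at late 2-cell, Tbx20 and Mef2c rose and Srf fell after A-485 treatment and Tbx20, Nkx2-5 and Hand2 rose after TSA treatment, with medians of 0.78 and 1.24. Tbx20, a heart T-box factor, was called in the same directions as Gata2: it fell with A-485 at early 2-cell, from 11.6 and 4.73 to 0.89 and 1.14 FPKM (-3.01 ± 0.26, edgeR adjusted p = 4.65e-06), and rose with TSA at late 2-cell (1.71 ± 0.20, edgeR adjusted p = 4.27e-05). After A-485 at late 2-cell its call was lost without A-485 replicate 1 or DMSO replicate 2, that of Mef2c was lost without either A-485 replicate or without DMSO replicate 2, and that of Srf with total-count scaling. After TSA the calls of Nkx2-5 and Hand2 were lost with one fit over all 16 libraries, and that of Hand2 also without TSA replicate 1. On the mitochondrial scale, no cardiac partner was called up after A-485 treatment and the median was -0.18. Of 9 other genes with a GATA-type finger, 8 were tested at late 2-cell, and Mta2, a subunit of the NuRD deacetylase complex, was called in both comparisons. It had 213 and 215 FPKM in DMSO and 23.4 and 15.6 FPKM after A-485 (-4.33 ± 0.19, edgeR adjusted p = 1.16e-08), and 18.1 and 16.7 against 177 and 189 FPKM after TSA (-4.02 ± 0.08, edgeR adjusted p = 1.11e-09). No other gene of the list was called after A-485, but on the mitochondrial scale 5 of the 8 were called down, with a median of -1.45 in place of -0.47, and 2 were called down after TSA. Gatad1 of the same list rose after TSA, which was lost without TSA replicate 2.

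**Figure D4:**
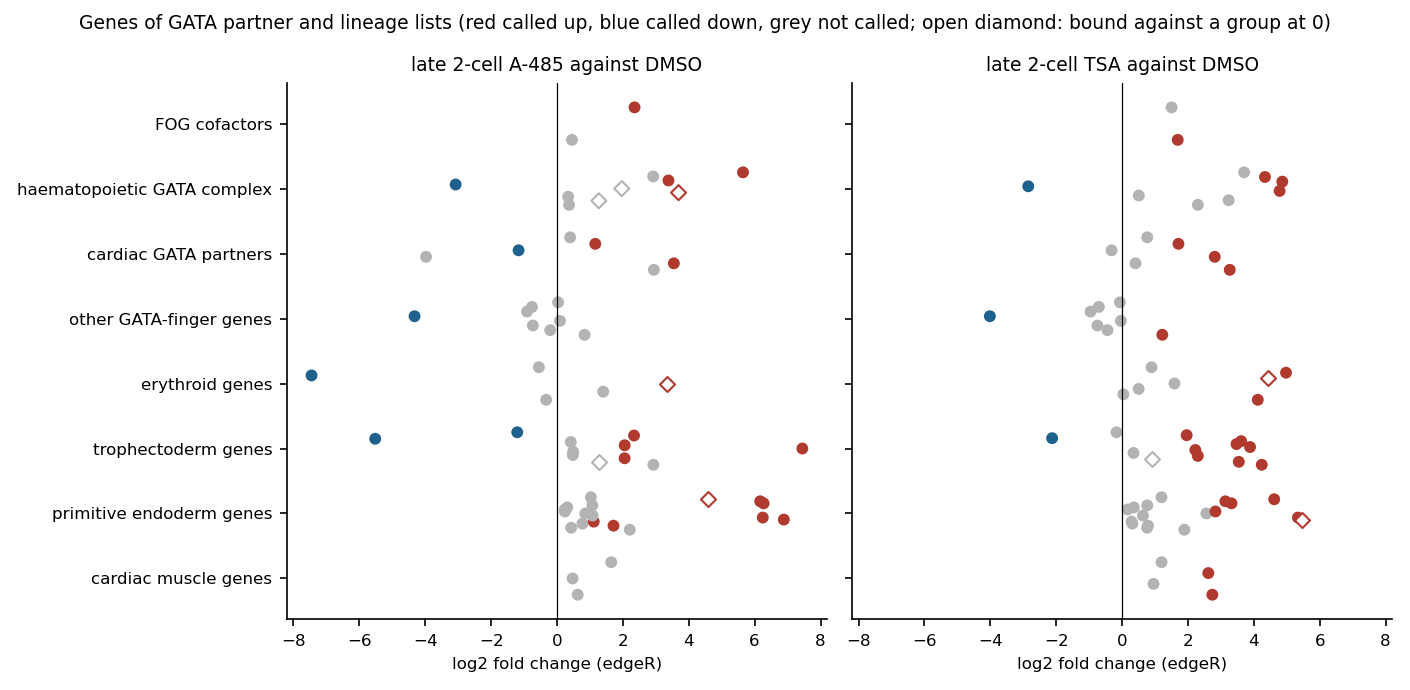
Log2 fold change (edgeR) of the tested genes of 8 lists of GATA partners and lineage genes in late 2-cell embryos, after A-485 at left and TSA at right; each point is a gene, coloured by its call, and open diamonds are bounds against a group at 0. Primitive endoderm genes had 7 calls up of 17 tested after A-485 and 6 of 17 after TSA, with none down.

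Genes of the lineages in which GATA factors act were counted likewise. Of 19 primitive endoderm genes, 17 were tested in late 2-cell embryos and 7 rose after A-485 treatment, with a median of 1.08 beside 0.28 over all genes, and 6 rose after TSA treatment, with a median of 1.19 beside 0.13. By edgeR or DESeq2 0 fell in either comparison, and 0 had an unadjusted p under 0.05 in that direction in edgeR. The number called up after A-485 was 5 on the mitochondrial scale, with a median of 0.09, and the number after TSA was 11 when scaled to total counts. Pdgfra, a growth factor receptor of primitive endoderm, rose from 0.08 and 0.54 to 13.9 and 15.9 FPKM after A-485 (6.27 ± 0.31, edgeR adjusted p = 2.56e-08) and from 0.30 and 0.24 to 5.43 and 3.63 FPKM after TSA (3.32 ± 0.29, edgeR adjusted p = 5.33e-06). Sox17, an endoderm factor, was 0 and 0.18 FPKM in DMSO and 9.58 and 12.1 FPKM after A-485 (6.17 ± 0.79, edgeR adjusted p = 6.08e-05). Foxq1 rose in both as well, by 6.25 and 5.33. The endoderm factors Foxa2 and Sox7 were also called up in both, Foxa2 at 2.00 and 2.38 FPKM after A-485 and 2.77 and 3.57 FPKM after TSA, and Sox7 at 0.79 and 1.67 FPKM after A-485, a call lost without A-485 replicate 2, and 1.57 and 2.43 FPKM after TSA. Sox17 and Gata2 had in common that at early 2-cell they were called down with A-485: Sox17 went from 1.41 and 1.82 to 0.14 and 0.05 FPKM (-3.80 ± 0.84, edgeR adjusted p = 0.00952).

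Of 13 trophectoderm genes, 11 were tested after A-485 treatment at late 2-cell, where 4 rose and 2 fell, and 12 after TSA, where 8 rose and 1 fell. Their medians were 2.05 and 2.88, or 1.27 and 2.26 with bounds. Krt18 and Krt8, the keratins of the outer cells, rose after TSA by 3.47 ± 0.22 and 3.61 ± 0.23 (edgeR adjusted p = 4.52e-07 and 4.33e-07), to 24.4 and 21.1 FPKM for Krt18. Hand1, a factor of trophoblast giant cells, was called up after both, at 5.29 and 1.98 FPKM after A-485 and 5.24 and 4.18 FPKM after TSA, against 0.43 FPKM or less in every late 2-cell control library. Ascl2, a regulator of trophoblast, was called up after TSA, at 5.17 and 2.85 against 0.10 and 0.22 FPKM. Cdx2, the defining trophectoderm factor, rose after TSA from 0.11 and 0.04 to 1.14 and 1.12 FPKM (3.54 ± 0.70, edgeR adjusted p = 0.00192). Tead4, which acts upstream of Cdx2, fell after both, from 7.43 and 11.3 to 0.05 and 0.39 FPKM with A-485 (-5.52 ± 0.54, edgeR adjusted p = 6.31e-06) and by -2.13 ± 0.18 with TSA (edgeR adjusted p = 3.12e-06). Tfap2c, the highest gene of the list in late 2-cell DMSO, also fell after A-485, from a mean of 25.7 to 12.4 FPKM, and was not called after TSA. Krt18 was called up after A-485 too, a call lost on the mitochondrial scale. With A-485 at early 2-cell, 3 of 11 trophectoderm genes fell, Krt8, Krt18 and Eomes, of which Eomes lost its call without A-485 replicate 2 or DMSO replicate 1.

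Of 14 erythroid genes, 5 were tested after A-485 treatment at late 2-cell, where Epor rose, a call lost without A-485 replicate 1, and Hba-a2 fell, a call lost without DMSO replicate 2. Of 7 tested after TSA, 3 rose. These were the globins Hba-a2, from 0.57 and 1.29 to 35.4 and 39.8 FPKM (4.97 ± 0.39, edgeR adjusted p = 2.05e-06), and Hba-a1, at least 21.5-fold higher, and Alas2, the first enzyme of erythroid haem synthesis (4.12 ± 0.73, edgeR adjusted p = 0.00089), a call lost with one fit over all 16 libraries. Hba-a1 and Hba-a2 are near-identical copies whose reads may be divided between them. Gata1 was lower in the same libraries. Of 7 cardiac muscle genes, 0 of 3 tested were called after A-485 by edgeR or DESeq2 and 0 had an unadjusted p under 0.05 in edgeR, and Myh6 and Tnni3 of 4 rose after TSA. At early 2-cell, Myh6 of 4 tested fell with A-485.

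Markers of other cells that a sample could hold were read in the same groups. The 12 cumulus and granulosa markers summed to 3.47 to 4.84 FPKM in late 2-cell DMSO libraries of the A-485 experiment and 8.58 to 9.88 FPKM with A-485, and to 3.96 to 4.78 and 9.38 to 9.78 FPKM without and with TSA. Kitl held the largest part, Foxl2 and Has2 rose among 8 tested after A-485, with the call of Has2 lost on the mitochondrial scale, and Inhbb among 10 after TSA, and Amh and Fshr were at 0 with A-485. The 7 fibroblast markers summed to 0.06 to 0.10 and 0.47 to 0.74 FPKM without and with A-485 and to 0.89 to 1.79 and 6.42 to 7.28 FPKM without and with TSA, with Dcn and Lum at 0 after both; Col1a1, Pdgfrb and Thy1 rose among 4 tested after TSA, and the call of Thy1 was lost with one fit over all 16 libraries. The 6 sperm markers summed to 1.25 to 2.37 and 2.14 to 3.09 FPKM without and with A-485 and to 1.99 to 3.21 and 4.65 to 6.24 FPKM without and with TSA. Their part in the differences of Gata2, Gata3 and Gata6 was not tested. The 6 oocyte and zygote markers summed to 729 to 782 FPKM in late 2-cell DMSO libraries and 1380 to 1390 FPKM after A-485, and to 559 to 580 and 717 to 746 FPKM without and with TSA. The 6 markers of the 2-cell stage summed to 224 to 239 FPKM with DMSO and 57.9 to 60.8 FPKM after A-485, but to 143 to 168 FPKM with DMSO and 346 to 404 FPKM after TSA. Of these 6, 5 fell after A-485 and 3 rose after TSA.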

How the data were processed

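Of 32 samples in the series, the 16 total RNA-seq libraries (8 groups of 2) and the ATAC-seq peaks of 4 groups were used; 8 CUT&RUN samples were not used here. The members, lists and alternatives were chosen with earlier results of these data known. The authors trimmed reads with Trimmomatic (0.39), aligned them with STAR (2.7.8a) to the mouse genome and quantified genes with RSEM (1.3.1). They deposited per gene an expected count, FPKM, a mean effective length in bases and a posterior SD. Expected counts were rounded to whole numbers for testing. The deposited peak files hold optimal peaks by irreproducible discovery rate over both replicates of a group (ENCODE ATAC-seq pipeline), with a score, a fold enrichment ratio and a −log10 p-value by the authors' peak caller, none of which was tested.

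Gene symbols came from GENCODE M21, which matched 55144 of 55385 IDs. Of the genes, those whose summed counts in the 4 libraries compared reached 10 were tested with edgeR (4.0.16, R 4.3.3) quasi-likelihood tests after TMM normalization, with Benjamini-Hochberg adjustment over all genes tested. Fold changes are log2 values of normalized counts, so they can differ from ratios of the deposited FPKM, and a call required at least a 2-fold difference, an average of 1 FPKM or more in either group and an adjusted p below 0.05; the cutoffs are those of the study's methods, and applying that on FPKM to either group was chosen here. Where a group had no counts, a bound was computed against a floor of 3 counts per library, which covers counting error only. The libraries held 13206163 to 32585987 expected counts. Alternatives were DESeq2 (1.42.0), total-count and mitochondrial scaling, no filter, no FPKM minimum, one fit over 16 libraries, a replicate block and leaving out each library; peak windows and thresholds were also varied. The code was tested on simulated data. Named were all 6 members, genes overlapping or starting within 10 kb of one, the 3 genes most like each member in course (1 of those for Gata3 is not reported here), and called genes of the lists, any of which could be named, with those of the largest change in a list preferred.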

Additional observations from a re-analysis of the deposited data

Results flagged for a closer look

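The response of Gata2 to A-485 had opposite signs at early and late 2-cell: every A-485-treated library lay below DMSO at early 2-cell and above it at late 2-cell. The log2 fold changes were -2.91 and 1.08, a difference of 4.00. Gata6 showed the same order of stages, with log2 fold changes of -1.05 and 3.61, a difference of 4.66. The difference between stages was not tested for either gene, and the early 2-cell value of Gata6 was not called. The late 2-cell value of Gata2 lost its call on the mitochondrial scale, at 0.12, and without late 2-cell DMSO replicate 2, at 0.68. A-485 was present until 20 hpi, so the late 2-cell embryos were collected after its removal.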

How the results depend on the processing

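Of the counts of members called, 117 values under an alternative stayed within 1.5 times the main count and 15 did not. At early 2-cell, 2 members were called down with A-485 when no FPKM minimum was set, Gata1 being added, and leaving out a library gave 1 to 2, with 2 without DMSO replicate 1. From zygote to early 2-cell, 1 member was called up on the mitochondrial scale, 0 were called down by DESeq2, and leaving out a library gave 0 to 1 down, with 0 without early 2-cell DMSO replicate 2 or zygote DMSO replicate 1. From early to late 2-cell, 2 members were called down with total-count scaling, mitochondrial scaling, no filter, one fit over 16 libraries or the replicate block, Gata3 being added, and 0 to 3 when a library was left out. In zygotes the difference of Gata3 reversed to 0.19 on the mitochondrial scale and ran from -0.38 to 0.13 when a library was left out, with the sign turned in some of these, and that of Gata6 ran from -0.29 to 0.66. From zygote to early 2-cell, mitochondrial scaling turned Gata4 to -0.18 and Gata6 to -0.83. The cause was not tested.

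Replicate numbers are shared between groups, and the deviations of same-numbered libraries correlated at -0.0376 to 0.1468 over genes. With 2 libraries a group, this cannot decide whether same-numbered libraries share embryos or a batch, and the labels do not say. Beside the change named above, the replicate block moved no count of members called by over 1.5 times.

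Over all genes, mitochondrial scaling gave 14 calls up and 14 down in A-485-treated zygotes in place of 1 and 12, 1177 and 6874 after A-485 at late 2-cell in place of 2406 and 3824, and 1270 and 8196 from zygote to early 2-cell in place of 2257 and 3002. After TSA, 3237 and 3247 became 4108 and 2384 with total-count scaling, where the median gene shifted by 0.36.

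Within 100 kb, the members had 12 peaks with DMSO and 11 with A-485 at late 1-cell, and 34 and 18 at early 2-cell. Within 25 kb the early 2-cell DMSO list had 6, and with as many of its strongest peaks as the shortest list, 7094, it had 4. Measured from the whole gene body, an alternative added after seeing the data, the late 1-cell A-485 list had 5. With 2 libraries a group, precision is limited, and levels under 1 FPKM rest on few counts.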

Other observations

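The windows around early 2-cell summits near Gata4 were searched for masked repeats and GATA forms. In DMSO-treated embryos the 5 windows of 300 bases were 30.3% to 73.0% masked as repeats and 3 of them held 1 of the GATA forms searched, a share of 26.1% over all windows of that list. In A-485-treated embryos the start window near Gata4 was 16% masked and held none, and the other window was 0% masked and held 1, so that 1 of 2 held a form, where the share over all windows of that list was 17.1%. At Gata5, 1 of the 3 early 2-cell DMSO windows was 100% masked. In the early 2-cell DMSO list, no window near Gata1 or Gata5 held any of the GATA forms. In the A-485-treated list of that stage, no window near Gata1 or Gata3 did. Windows near Gata6 were not searched, so the Gata4 windows are only a part of those near the members.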
